A study of Mus musculus with 12 samples.

Results

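The nuclear pore complex genes were described in immature T-cell precursors of the thymus, sorted as double-negative (DN) for CD4 and CD8, with 12 expression arrays (Illumina MouseWG-6 v2.0). The members were chosen by name: 31 listed names of nucleoporins and of the Nup98 partners Rae1 and Xpo1, which stand for 30 genes because Nup58 and Nupl1 are names of the same gene. Of these, 28 genes had an annotated probe (56 probes), and 25 genes with 45 probes were detected, with a detection p under 0.05 on at least 3 arrays, among 20416 such probes of 10497 genes. No probe was named Tpr or Nup35 in the annotation, and the probes of Nup153, Nup188 and Xpo1 did not pass. All mice were C57 BL/6 aged 2 to 3 months: 6 wild-type arrays, 3 of NHD13 transgenic mice, and 3 of NHD13 transgenic mice that also lacked Lyl1, called the knockout group here. No Lyl1 knockout without the transgene was among them, so the effect of losing Lyl1 was measured only in the presence of NHD13. The labels do not say whether replicates were separate animals or pools, so the tests measure the spread between arrays, which may be partly technical.

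The nuclear pore complex is the channel through which proteins and RNA pass between nucleus and cytoplasm. Its scaffold is made of Y-shaped complexes and an inner ring, held in the nuclear envelope by membrane nucleoporins; filaments on the cytoplasmic side, a basket on the nuclear side and nucleoporins rich in phenylalanine-glycine repeats in the channel bind the transport receptors. NHD13 is the fusion NUP98-HOXD13, in which the repeat-rich amino-terminal part of the nucleoporin NUP98 is joined to the DNA-binding homeodomain of HOXD13; the transgene of this mouse model is known to be driven by Vav1 regulatory elements, active in blood cells. Lyl1 encodes a DNA-binding regulator active in immature blood cells.

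The start regions of 4 members are shown because they span the range of the results below: Ndc1 had the largest difference, Nup205 fell within its background class too, Nup98 is the partner in the fusion, and Rae1 differed little. Each is 300 bases from RefSeq (GRCm38.p6), 250 before to 50 after the gene's start, 5′ to 3′ on the gene's strand, with motif matches in capitals. They lie at chr4:107367797-107368096 (plus strand, Ndc1), chr6:35177366-35177665 (plus strand, Nup205), chr7:102210117-102210416 (minus strand, Nup98) and chr2:172999867-173000166 (plus strand, Rae1).
Ndc1: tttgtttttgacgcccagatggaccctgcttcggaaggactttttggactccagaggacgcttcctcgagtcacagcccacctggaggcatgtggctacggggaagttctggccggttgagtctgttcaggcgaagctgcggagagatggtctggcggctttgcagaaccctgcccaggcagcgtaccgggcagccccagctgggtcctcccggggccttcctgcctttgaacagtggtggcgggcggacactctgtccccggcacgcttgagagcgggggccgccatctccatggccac
Nup205: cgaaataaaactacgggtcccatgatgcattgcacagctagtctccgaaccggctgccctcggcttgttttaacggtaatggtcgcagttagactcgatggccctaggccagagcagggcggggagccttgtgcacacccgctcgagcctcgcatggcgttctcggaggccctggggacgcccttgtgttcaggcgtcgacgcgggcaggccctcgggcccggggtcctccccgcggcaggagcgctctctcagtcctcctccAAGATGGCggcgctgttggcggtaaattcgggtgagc
Nup98: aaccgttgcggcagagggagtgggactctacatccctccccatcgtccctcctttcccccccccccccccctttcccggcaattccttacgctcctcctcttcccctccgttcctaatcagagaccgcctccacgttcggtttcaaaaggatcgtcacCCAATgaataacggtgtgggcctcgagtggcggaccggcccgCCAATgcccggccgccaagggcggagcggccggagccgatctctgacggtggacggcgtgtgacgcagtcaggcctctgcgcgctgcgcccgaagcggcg
Rae1: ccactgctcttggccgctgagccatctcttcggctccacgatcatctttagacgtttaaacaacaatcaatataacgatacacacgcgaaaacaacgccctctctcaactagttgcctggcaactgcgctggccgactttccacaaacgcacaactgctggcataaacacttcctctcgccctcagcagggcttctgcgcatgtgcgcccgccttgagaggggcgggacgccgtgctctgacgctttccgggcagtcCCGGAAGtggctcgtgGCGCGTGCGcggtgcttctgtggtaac

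The letters searched on both strands were CCGGAAG (ETS family), GCGCNTGCG (NRF1), CCAAT (NFY), CACGTG (E-box), TTTNGCGC (E2F) and AAGATGGC (YY1), motifs chosen after expression values were seen. Of 26 member start regions in the RefSeq table, 26.9% held the ETS letters against 9.12% of all 27025 regions of the same length, and 19.2% held the NRF1 letters against 6.59%. The YY1 letters stood in 15.4% of member regions against 2.88% of all, CACGTG in 15.4% against 7.24%, CCAAT in 42.3% against 37.9%, and the E2F letters in 0 of 26 against 1.38%. Member regions were also richer in G and C, with a median of 63.8% against 52.7%, and held a median of 27.5 CpG pairs against 7. The motif shares were not adjusted for this base composition. Ndc1 held none of these letters, Nup205 the YY1 letters, Nup98 CCAAT at 2 places, and Rae1 the ETS and NRF1 letters. Among the 9 regions of genes with a probe lower in NHD13 (below), 1 held the ETS letters and 1 the NRF1 letters; among 13 regions of the other measured genes these counts were 6 and 4. CCAAT stood in 5 of the 9 and 4 of the 13, and the YY1 letters in 2 of the 9 and 1 of the 13. These are descriptions of letters, not of binding.

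The arrays were checked first. The Lyl1 probe lay at 6.79 to 7.39 on the wild-type arrays and 11.10 to 11.19 in NHD13, and was detected on 0 of 3 knockout arrays (4.68 to 4.75), below the lowest signal of any detected probe, which lay at 5.22 to 5.51 over the 12 arrays. The arrays fell into 2 classes by the signals of 19512 probes detected on no array, with correlations of -0.07 to 0.43 within a class and -0.37 to -0.13 between classes. The first class was made up of every knockout array with wild-type replicates 1, 2 and 3, and the second of every NHD13 array with wild-type replicates 4, 5 and 6. By sex-linked probes, males were knockout replicate 3 and the wild-type arrays of the first class, and all other arrays were female. Between NHD13 and the knockout group, class and genotype cannot be told apart without the wild-type arrays. For the members, the counts and the called probes of each comparison are therefore also given within a class or with the class as a block. Among the wild-type arrays, class and sex cannot be told apart, so these class values may also hold a difference between males and females. Changes of single marker and neighbouring genes are given without the class. Knockout replicate 1 stood apart: its Mpo level, a granule enzyme of myeloid cells, was 14.28 against 5.27 and 4.64 in the other 2 knockout arrays, and its Cd3e level was 9.58 against 13.15 and 13.09. In these bulk samples, fewer cells of a type and less RNA per cell cannot be told apart.

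In NHD13 DN thymocytes, some of the nuclear pore complex genes were lower than in wild type. Of 45 member probes, 15 probes of 11 genes fell and 0 rose (limma's moderated test, adjusted p under 0.05 by Benjamini and Hochberg over all probes), where over all probes 11.2% were lower and 9.79% higher. The genes that fell were Ndc1, Nup43, Nup62, Nup88, Nup98, Nup133, Nup155, Nup160, Nup205, Nupl2 and Seh1l, which belong to 6 of the 7 role groups. The median log2 change of the member probes was -0.46 against -0.01 over all probes, and 39 of 45 changes were below 0. Before adjustment, 24 member probes were lower and 0 higher at p under 0.05. The share of all probes at that unadjusted threshold was not counted, so this and the unadjusted counts below have no background. The groups did not overlap, with every NHD13 array below every wild-type array, for 14 member probes, as for 13.3% of all probes. Of 9 genes with several probes, 0 had all of them called. Against wild-type replicates 4 to 6, the arrays of the same background class, 6 member probes were lower and 0 higher, with a background of 7.52% lower and 6.1% higher.

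**Figure D1:**
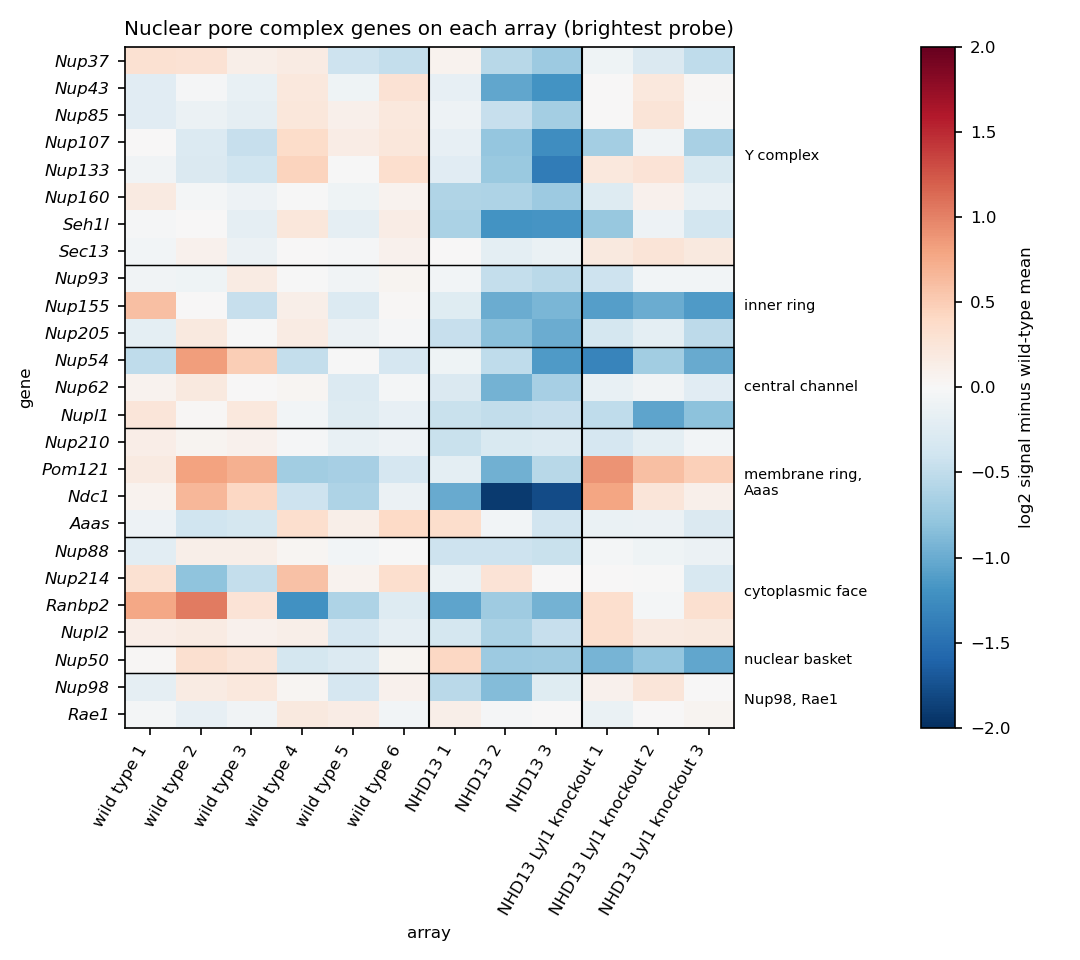
Log2 signal of the brightest detected probe of each of 25 genes (rows, by role) on each of 12 arrays (columns), minus the gene's wild-type mean; blue is lower and red higher, on a scale from -2 to 2. Ndc1 is darkest in NHD13, where its mean change was -1.57, and Rae1 is pale throughout.

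The size of the difference depended on how the arrays were scaled. With median scaling in place of quantile normalization, the median change of all probes moved to 0.26. The 3 member probes that remained lower were those of Ndc1 (-1.15), Seh1l (-0.59) and Nup133 (-0.69, the dim probe ILMN_2719266). That Nup133 probe passed the filter only through wild type, where it was high. The split of all calls moved from 46.5% higher to 80.5% higher. Relative to the median of all probes, the members' median was -0.41 under median scaling and -0.46 in the main fit. Single arrays mattered too: 5 member probes were called without NHD13 replicate 2, 6 without replicate 3 and 18 without replicate 1. Calls over all probes moved as well, to 2361, 2246 and 4322 in these fits from 4295, so the loss was not particular to the members.

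The Y complex forms the outer rings of the scaffold, and 6 of its 14 probes fell in NHD13, with a median of -0.69 and all 14 changes below 0. Seh1l, a Y complex member that also serves in the GATOR2 complex of nutrient signalling, had 4 probes. Its probe ILMN_3096750 had a log2 signal of 9.57 to 9.89 in wild type (median 9.71), 8.93, 8.5 and 8.68 in NHD13, and 8.48, 9.03 and 8.59 in the knockout group. Every NHD13 and every knockout array lay below every wild-type array. It fell by 1.01 ± 0.16 (log2 change ± SE, adjusted p = 0.00177) in NHD13, and by 0.96 (adjusted p = 0.0187) against wild-type replicates 4 to 6. The brightest Seh1l probe, ILMN_1223674, read 10.37 to 10.79 (median 10.55) in wild type, 9.92, 9.36 and 9.38 in NHD13, and 9.80, 10.45 and 10.19 in the knockout group. It fell by 1.00 ± 0.19 in NHD13 (adjusted p = 0.00385), again without overlap, and within the class the change was -1.07 (adjusted p = 0.0236). The other 2 probes, ILMN_3024099 and ILMN_1253876, had changes of -0.32 and -0.45 that were not called.

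Nup160, a large scaffold subunit of the Y, read 10.46 to 10.74 (median 10.54) in wild type, 9.96, 9.95 and 9.84 in NHD13, and 10.30, 10.64 and 10.42 in the knockout group. It fell by 0.64 ± 0.13 (adjusted p = 0.00613), with all 3 NHD13 arrays below the wild-type range, and by 0.63 within the class (adjusted p = 0.0289). Nup43, a small subunit on an arm of the Y, read 10.24 to 10.76 (median 10.42) in wild type, 10.31, 9.44 and 9.28 in NHD13, and 10.48, 10.69 and 10.50 in the knockout group. Its fall of 0.80 ± 0.22 (adjusted p = 0.0224) came with 1 NHD13 array inside the wild-type range. Within the class the change was -0.94 and not called (adjusted p = 0.0502), and with the class as a block it was called (adjusted p = 0.0243).

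Nup133, at the stem of the Y, had 4 detected probes. Probe ILMN_2981689 read 9.83 to 10.49 (median 10.12) in wild type, 9.87, 9.33 and 8.66 in NHD13, and 10.69, 10.72 and 10.34 in the knockout group. It fell by 0.89 ± 0.25 in NHD13 (adjusted p = 0.0264), with 1 array inside the wild-type range. Within the class the change was -1.05 and not called (adjusted p = 0.0504), and with the class as a block it was called (adjusted p = 0.0264). The dim probe ILMN_2719266 read 5.17 to 6.19 (median 5.69) in wild type and 4.98, 4.86 and 4.93 in NHD13. In the knockout group it read 5.62, 5.47 and 5.11. It was detected on 4 wild-type, 0 NHD13 and 2 knockout arrays, so it passed the filter only through wild type, where it was high. Wild type was at least 1.19-fold higher than NHD13 (adjusted p = 0.0324), and within the class the difference was not called (adjusted p = 0.0536). The brightest probe, ILMN_2654013, changed by -0.79 (adjusted p = 0.0563) and ILMN_2555335 by -0.64 (adjusted p = 0.0686), which within the class was -0.95 and called (adjusted p = 0.016). Nup107 (-0.73), Nup85 (-0.41), Nup37 (-0.40) and Sec13 (-0.11), also Y complex subunits, were not called. With the class as a block, Nup107 (-0.97, adjusted p = 0.0306), Nup85 (-0.59, adjusted p = 0.0361) and Nup133 ILMN_2654013 (-1.04, adjusted p = 0.0285) were called. Nup37 and Sec13 were not.

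Among inner ring genes, which form the scaffold around the channel, 2 of 5 probes fell. Nup205, a large adaptor of the inner ring, read 12.12 to 12.51 (median 12.30) in wild type, 11.86, 11.48 and 11.33 in NHD13, and 11.97, 12.12 and 11.80 in the knockout group. The NHD13 arrays lay below the wild-type range, a fall of 0.77 ± 0.16 (adjusted p = 0.00652), and the within-class value was also -0.77 (adjusted p = 0.0315). Nup155, which links the inner ring to the membrane, read 8.08 to 9.15 (median 8.56) with ILMN_2695281 in wild type, 8.31, 7.56 and 7.63 in NHD13, and 7.44, 7.56 and 7.41 in the knockout group. Its fall of 0.71 ± 0.23 in NHD13 (adjusted p = 0.0484) overlapped the wild-type range on 1 array and was not called within the class (-0.67, adjusted p = 0.0788), while its dimmer probes changed by -0.23 and 0.18 and were not called. Nup93, which anchors the channel nucleoporins, changed by -0.36 (adjusted p = 0.122).

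Of the channel nucleoporins, whose repeats bind transport receptors, 1 of 5 probes fell. Nup62 read 11.94 to 12.40 (median 12.23) in wild type, 11.92, 11.26 and 11.55 in NHD13, and 12.06, 12.14 and 11.98 in the knockout group. All NHD13 arrays lay below the wild-type range, the first by a narrow margin, and the fall was 0.63 ± 0.16 (adjusted p = 0.0188; within the class -0.54, adjusted p = 0.0984). Its partners Nup54 (-0.58) and Nupl1 (-0.46, -0.46 and -0.23 for 3 probes) were not called.

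Among the membrane nucleoporins and Aaas, which Ndc1 holds at the pore, 1 of 5 probes fell. Ndc1, a membrane protein that anchors the pore, had the largest change of all members. Its log2 signal was 8.82 to 10.11 (median 9.42) in wild type, 8.43, 7.53 and 7.65 in NHD13, and 10.23, 9.69 and 9.54 in the knockout group. Every NHD13 array lay below every other array. Ndc1 fell by 1.57 ± 0.31 in NHD13 (2.98-fold lower, adjusted p = 0.00448), and the call was kept in all 22 settings run. In wild type it also differed between classes, at 9.51 to 10.11 in replicates 1 to 3 and 8.82 to 9.33 in replicates 4 to 6, and within the class the change was -1.19 (adjusted p = 0.0318). Nup210 (-0.34), Pom121 (-0.58) and Aaas (-0.03 and 0.09) were not called.

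**Figure D2:**
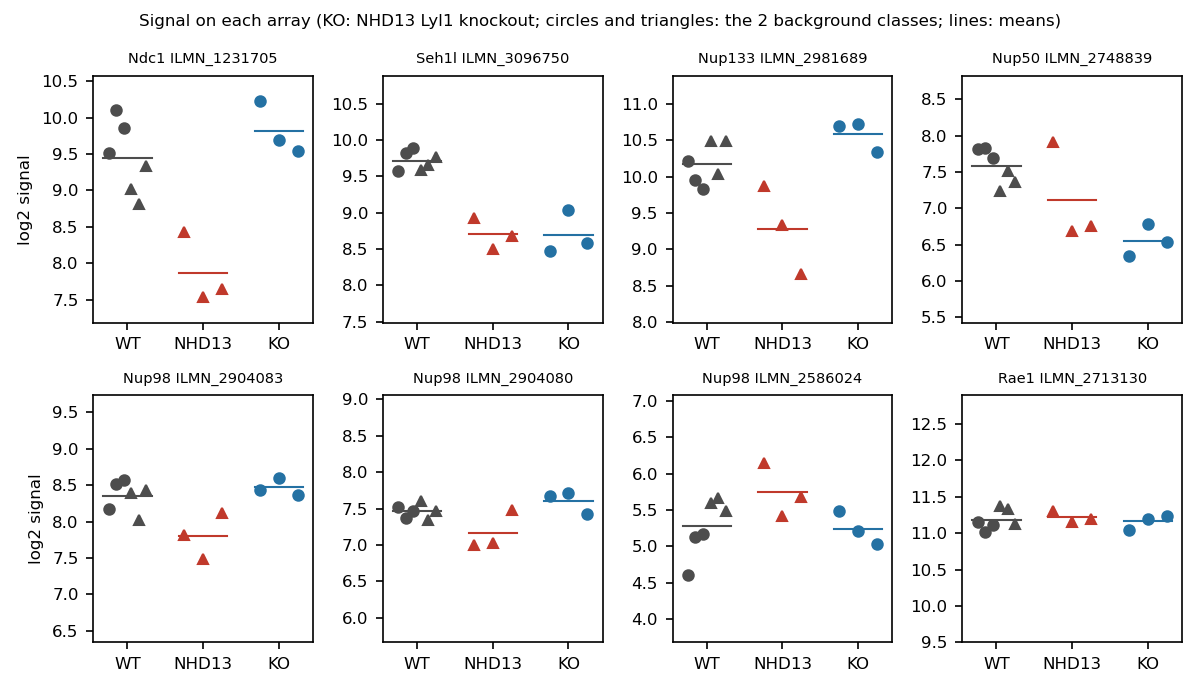
Log2 signal (vertical axis, a span of 3.4 in each panel) on each array for 8 probes of 6 genes in wild type (WT), NHD13 and the NHD13 Lyl1 knockout (KO); lines are group means, and circles and triangles are the 2 background classes. The NHD13 triangles of Ndc1 lie at 7.53 to 8.43, below every other array, and those of Rae1 at 11.16 to 11.31, inside the wild-type range.

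On the cytoplasmic face, where filaments complete the export of mRNA and proteins, 4 of 9 probes fell. Nup88, which binds Nup214, had 4 probes. The brightest, ILMN_3108109, read 11.62 to 11.95 (median 11.84) in wild type, 11.41, 11.42 and 11.39 in NHD13, and 11.80, 11.74 and 11.72 in the knockout group. ILMN_2639464 read 5.99 to 6.94 (median 6.62) in wild type, 5.91, 5.85 and 5.69 in NHD13, and 6.61, 6.65 and 6.67 in the knockout group. ILMN_2742498 read 7.03 to 8.10 (median 7.2) in wild type, 6.78, 6.60 and 5.86 in NHD13, and 6.87, 6.93 and 7.03 in the knockout group. None of these 3 probes overlapped between NHD13 and wild type, and their falls were 0.43, 0.72 and 0.94 (adjusted p of 0.0312, 0.0281 and 0.0226). Within the class they were -0.42, -0.43 and -0.68 and were not called. The fourth probe, ILMN_3034381, changed by -0.59 (adjusted p = 0.389), and it was the member probe that differed most between wild-type classes, by 1.45.

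Nupl2, a cytoplasmic nucleoporin of mRNA export, read 8.56 to 9.07 (median 9.0) in wild type, 8.55, 8.27 and 8.43 in NHD13, and 9.23, 9.08 and 9.09 in the knockout group. The NHD13 arrays lay just below wild type, a fall of 0.49 ± 0.15 (adjusted p = 0.0416; within the class -0.36, adjusted p = 0.187). Nup214 changed by 0.05, and the 3 probes of Ranbp2, a filament protein and SUMO ligase, by -0.90, -0.54 and 0.30; none was called. The basket was measured by Nup50 alone, which assists importin-mediated import, with changes of -0.35, -0.24 and -0.46 and no call.

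Nup98 itself, whose transcript also encodes the Y complex subunit Nup96, had 3 detected probes. The brightest, ILMN_2904083, read 8.02 to 8.57 (median 8.42) in wild type, 7.81, 7.48 and 8.12 in NHD13, and 8.44, 8.60 and 8.37 in the knockout group. It fell by 0.55 ± 0.18 in NHD13 (adjusted p = 0.0457), with 1 array inside the wild-type range, and by 0.48 within the class, which was not called (adjusted p = 0.15). That call held in 7 of 22 settings. ILMN_2904080 read 7.34 to 7.61 (median 7.47) in wild type, 7.0, 7.03 and 7.48 in NHD13, and 7.67, 7.72 and 7.43 in the knockout group, and its change of -0.29 was not called. ILMN_2586024, detected on 6 arrays, read 4.61 to 5.66 (median 5.33) in wild type, 6.15, 5.42 and 5.68 in NHD13, and 5.48, 5.21 and 5.03 in the knockout group, a change of 0.48 in NHD13 (adjusted p = 0.193). Whether any of the 3 probes reads the fusion transcript was not tested.

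Rae1, an mRNA export factor that binds Nup98, read 11.02 to 11.38 (median 11.14) in wild type, 11.31, 11.16 and 11.19 in NHD13, and 11.05, 11.20 and 11.24 in the knockout group. The 3 groups overlapped, with changes of 0.03 ± 0.13 in NHD13 (adjusted p = 0.883) and -0.05 ± 0.15 in the knockout group against NHD13 (adjusted p = 0.838). Xpo1, the main export receptor for proteins, was at background with both probes. ILMN_2481528, detected on 1 array, lay at 4.84 to 5.30 (median 4.97) in wild type, at 4.68, 4.92 and 4.59 in NHD13, and at 4.65, 5.05 and 4.74 in the knockout group. ILMN_3123321, detected on 0 arrays, lay at 4.88 to 5.14 (median 4.96) in wild type, at 4.86, 4.95 and 4.83 in NHD13, and at 4.78, 4.87 and 4.58 in the knockout group, so no difference in Xpo1 could be read.

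In the knockout group against NHD13, 9 member probes of 9 genes rose and 0 fell, against 11.2% higher and 9.77% lower over all probes. These genes were Ndc1, Nup43, Nup88, Nup98, Nup133, Nup160, Nupl2, Pom121 and Seh1l. The median change was 0.21 against 0.01 over all probes, and before adjustment 18 probes were higher and 0 lower at p under 0.05. With median scaling 4 member probes were higher and 2 lower, where over all probes 1726 were higher and 2099 lower. This comparison and the preceding one share the NHD13 arrays, so their values are not independent. Without overlap, 17 member probes were higher and 5 lower, as were 19.5% and 18% of all probes. With the background class as a block, 4 member probes were higher and 1 lower, with a background of 8.08% higher and 6.93% lower.

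Ndc1 rose by 1.95 ± 0.35 (3.86-fold, adjusted p = 0.00335), and with the class as a block by 1.18, which was not called (adjusted p = 0.0668). Nup133 probe ILMN_2981689 rose by 1.30 ± 0.29 (adjusted p = 0.00938), by 1.64 with the class as a block (adjusted p = 0.0223), and was called in all 16 settings. Nup43 rose by 0.88 ± 0.25 (adjusted p = 0.0283) and by 1.15 with the block (adjusted p = 0.0467), a call kept in 9 of 16 settings and lost when knockout replicate 1 was also left out (adjusted p = 0.0505). For Ndc1, Nup43 and this Nup133 probe every knockout array lay above every NHD13 array. The brightest Nup133 probe, ILMN_2654013, overlapped, with knockout replicate 3 at 9.99 and NHD13 replicate 1 at 10.08. Its change of 0.85 was not called without the block (adjusted p = 0.0727).

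The other 6 calls were not kept with the class as a block. They were Nupl2 (0.72, with the block 0.46), Nup160 (0.54 and 0.52), Nup88 ILMN_2639464 (0.83 and 0.24), Nup98 ILMN_2904083 (0.67 and 0.53), Pom121 (1.24 and 0.11) and Seh1l ILMN_1253876. The Seh1l probe, at 4.90 to 5.75 in wild type (median 5.26), read 5.72, 5.44 and 5.60 in the knockout group and 4.92, 4.58 and 5.00 in NHD13, where it was not detected; the knockout group was at least 1.12-fold higher. It was detected on 3 knockout and 2 wild-type arrays, so it passed the filter only through the group where it was high, and 8 member probes were higher when detection on 6 or more arrays was required. Pom121, a membrane nucleoporin needed for pore assembly, read 7.64 to 9.14 (median 8.26) in wild type, 8.14, 7.37 and 7.78 in NHD13, and 9.23, 8.94 and 8.82 in the knockout group. Its wild-type arrays split by class, and so also by sex, with replicates 1 to 3 at 8.52 to 9.14 and replicates 4 to 6 at 7.64 to 8.0.

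With the block alone, Nup85 rose by 0.85 (adjusted p = 0.0374), Nup133 ILMN_2654013 rose by 1.35 (adjusted p = 0.0447), and Nup88 ILMN_3034381 fell by 1.94 (adjusted p = 0.0203). The latter read 6.64 to 8.98 (median 7.86) in wild type, 7.60, 7.13 and 7.13 in NHD13, and 6.62, 6.80 and 6.98 in the knockout group. Without knockout replicate 1, 6 member probes were higher, those of Ndc1 (1.75, adjusted p = 0.00959), Nup43, Nup133, Nup160, Nupl2 and the brightest Seh1l probe ILMN_1223674 (0.76, adjusted p = 0.0337), with 10.8% of all probes higher. The Seh1l probe ILMN_1253876 was then not called (adjusted p = 0.0789). With the class as a block and knockout replicate 1 left out, 2 member probes were higher and 3 lower, among 3631 calls over all probes. The split of those calls by direction was not counted, so no direction is read from these few member calls. Without NHD13 replicate 2, 2 member probes were called, and without knockout replicate 2 or 3, 3 were. Calls over all probes were then 2357, 2904 and 3432, against 4284 in the main fit.

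**Figure D3:**
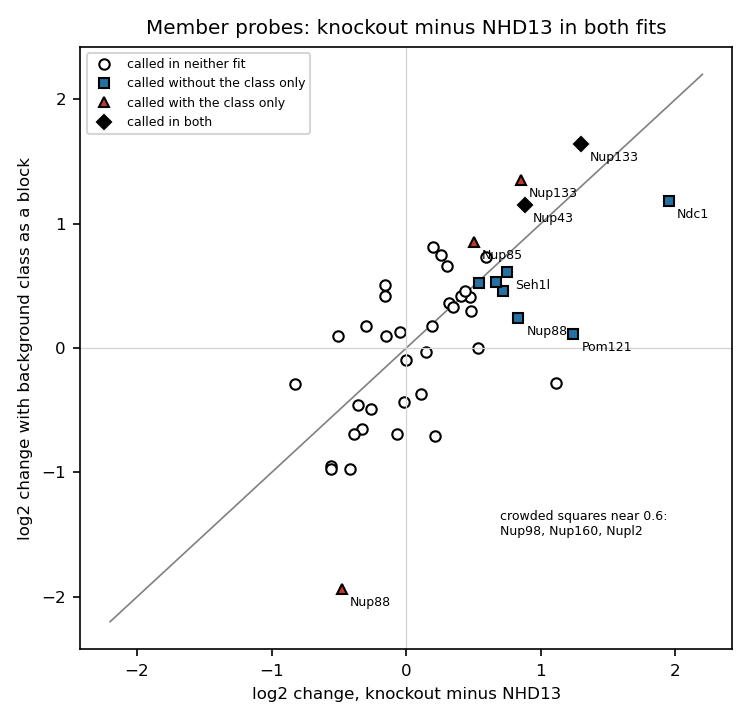
Log2 change of 45 member probes between the knockout group and NHD13 without the background class (horizontal) and with it as a block (vertical); the line marks equal values and the symbols mark which fit called the probe. Pom121 moves from 1.24 to 0.11 and Ndc1 from 1.95 to 1.18, and Nup133 probe ILMN_2981689 and Nup43 are called in both.

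In the knockout group against wild type, 6 member probes of 5 genes fell and 0 rose, with a background of 5.5% lower and 4.07% higher over all probes. The genes were Nup50, Nup155, Nupl1, Ranbp2 and Seh1l. The median change was -0.14 against 0.04 over all probes, and with median scaling it was 0.12, so the direction of the median depended on the scaling. Called member probes were then 2 higher and 5 lower, where over all probes 2218 were higher and 778 lower. Against wild-type replicates 4 to 6 alone 1 member probe was higher and 3 were lower, among 1407 calls over all probes. The split of those calls by direction was not counted. Before adjustment, 12 probes were lower and 0 higher at p under 0.05. Without overlap, 9 member probes were lower and 2 higher, as were 8.84% and 8.17% of all probes. Against wild-type replicates 1 to 3, which share the background class but are all male, 6 were lower and 0 higher, with a background of 5.02% lower and 3.56% higher. Of these 6, 4 were also called against all wild-type arrays, and Nupl1 ILMN_2635024 (-0.84, adjusted p = 0.0329) and Nup88 ILMN_3034381 (-1.80, adjusted p = 0.00876) were not.

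Seh1l ILMN_3096750 fell by 1.01 ± 0.16 (adjusted p = 0.00408), by 1.06 within the class (adjusted p = 0.0195), and was called in all 21 settings. Its change between the knockout group and NHD13 was 0.00 ± 0.19 (adjusted p = 0.991), while the brightest Seh1l probe changed by 0.59 ± 0.22 there (adjusted p = 0.0733) and by -0.41 against wild type (adjusted p = 0.199). The difference between the 2 probes was not tested.

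Nup155 ILMN_2695281 fell by 1.08 ± 0.23 against wild type (adjusted p = 0.0161), with all knockout arrays below the wild-type range given above, and within the class by 1.12, which was not called (adjusted p = 0.0515). Nupl1 ILMN_2872537 read 9.65 to 10.15 (median 9.90) in wild type, 9.47, 9.42 and 9.46 in NHD13, and 9.41, 8.86 and 9.10 in the knockout group. It fell by 0.79 ± 0.17 (adjusted p = 0.014), and its wild-type and knockout arrays did not overlap. Within the class the change was -0.95 (adjusted p = 0.0179).

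Nup50 ILMN_2748839 read 7.24 to 7.83 (median 7.60) in wild type, 7.91, 6.69 and 6.76 in NHD13, and 6.34, 6.79 and 6.54 in the knockout group. ILMN_1244061 read 7.25 to 7.92 (median 7.64) in wild type, 8.01, 6.87 and 6.89 in NHD13, and 6.67, 6.83 and 6.57 in the knockout group. These Nup50 probes fell by 1.02 (adjusted p = 0.0315) and 0.91 (adjusted p = 0.0425) against wild type with no overlap, and within the class the first was called (adjusted p = 0.0474) and the second was not (adjusted p = 0.0552). In NHD13, replicate 1 stood apart from replicates 2 and 3. The third probe, ILMN_1253804, changed by 0.06. Ranbp2 ILMN_1256270 read 5.28 to 6.50 (median 5.62) in wild type, 5.04, 5.12 and 5.48 in NHD13, and 4.75, 4.94 and 4.79 in the knockout group, where it was not detected; wild type was at least 1.28-fold higher (adjusted p = 0.0462). Within the class this Ranbp2 probe was also called (adjusted p = 0.0481). It was detected on 3 wild-type arrays and 1 NHD13 array, so it passed the filter only through wild type. When detection on 6 or more arrays was required, 5 member probes were lower. The brightest Ranbp2 probe changed by 0.20 and ILMN_1240796 by -0.54, neither called. Without knockout replicate 1, 3 member probes were lower, those of Nup155, Nupl1 and Seh1l, with 2.87% of all probes lower.

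**Figure D4:**
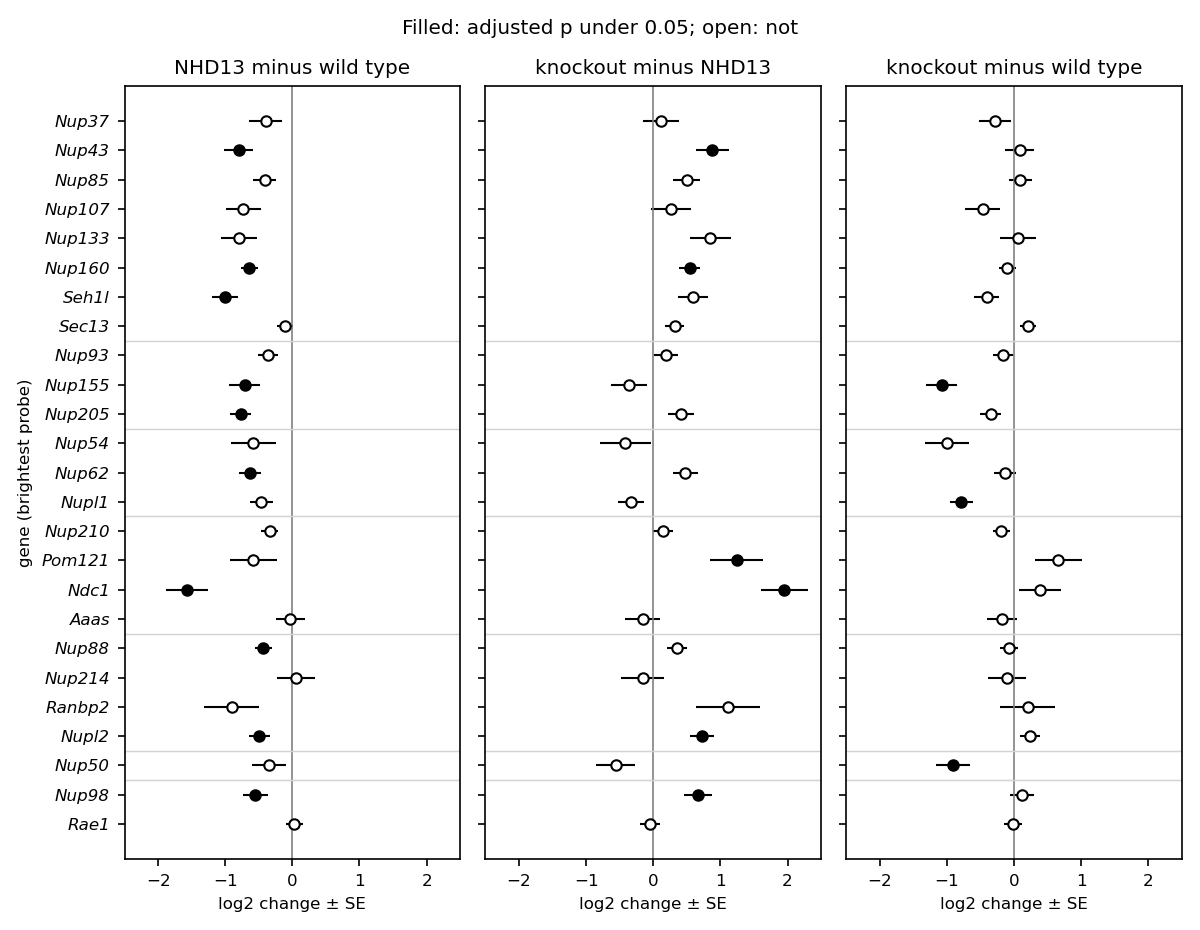
Log2 change with its SE (horizontal) for the brightest probe of each of 25 genes (vertical, by role) in the 3 comparisons; filled points have an adjusted p under 0.05. There are 10 filled points, all lower, in NHD13 against wild type, 6, all higher, in the knockout group against NHD13, and 3, all lower, in the knockout group against wild type.

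The genes that work with the pore were described from a list of 36 genes of transport receptors, the Ran cycle and related factors, 31 of them detected. In NHD13 10 were lower and 1 higher than in wild type (unadjusted, 13 and 1), with a median of -0.44, where by brightest probe 12.6% of all genes were lower and 11.6% higher. Kpna2 and Kpna3, importin alpha adaptors for import, fell by 1.7 (adjusted p = 0.0244) and 1.46 (adjusted p = 0.00923), and Rcc1, the exchange factor that loads Ran with GTP, by 1.16 (adjusted p = 0.0163). The Kpna2 call was kept in 14 of 22 settings and lost with the background class as a block. The Kpna3 call was kept in all 22. The others that fell were Ranbp1, Ipo5, Ran, Cse1l, Kpnb1, Xpo4 and Xpot. Ddx19b, a helicase of mRNA export, rose by 0.54 (adjusted p = 0.0185), a call lost with the background class as a block. In the knockout group against NHD13 9 were higher and 0 lower (unadjusted, 11 and 2), with a median of 0.28, against 13% of all genes higher and 9.22% lower. Kpna3 rose by 1.76 (adjusted p = 0.00808), Rcc1 by 1.35 (adjusted p = 0.0165) and Kpnb1, importin beta, by 1.25 (adjusted p = 0.00972). With the background class as a block 3 of the 31 were called, and the calls of Kpna3 (0.66, adjusted p = 0.145) and Kpnb1 (0.54, adjusted p = 0.185) were lost, while Rcc1 was called (1.78, adjusted p = 0.0288). Against wild type 2 were lower in the knockout group and 0 higher (unadjusted, 4 and 0), with a median of 0.01, against 3.81% of all genes lower and 4.49% higher. The 2 genes were Ipo7 (-1.55, adjusted p = 0.0365) and Ipo5 (-0.74, adjusted p = 0.0346). Their calls were kept in 8 and 9 of 21 settings, and both were lost with the background class as a block.

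Other lists moved on the same arrays. The mean of the 25 members relative to wild type was -0.27, -0.65 and -0.71 on NHD13 replicates 1 to 3 and -0.17, -0.09 and -0.25 on the knockout arrays, against -0.17 to 0.11 on the wild-type arrays. The mean of 14 proliferation genes, 13 of which fell in NHD13, was -0.45, -1.39 and -1.81 in NHD13 and -0.33, 0.07 and -0.49 in the knockout group. The mean of 5 growth genes, all of which fell in NHD13, was -0.95, -1.10 and -1.35 in NHD13 and -0.57, -0.10 and -0.19 in the knockout group. NHD13 replicate 1 was thus nearest to wild type in each of these lists, and the part of proliferation in the members' values was not tested.

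**Figure D5:**
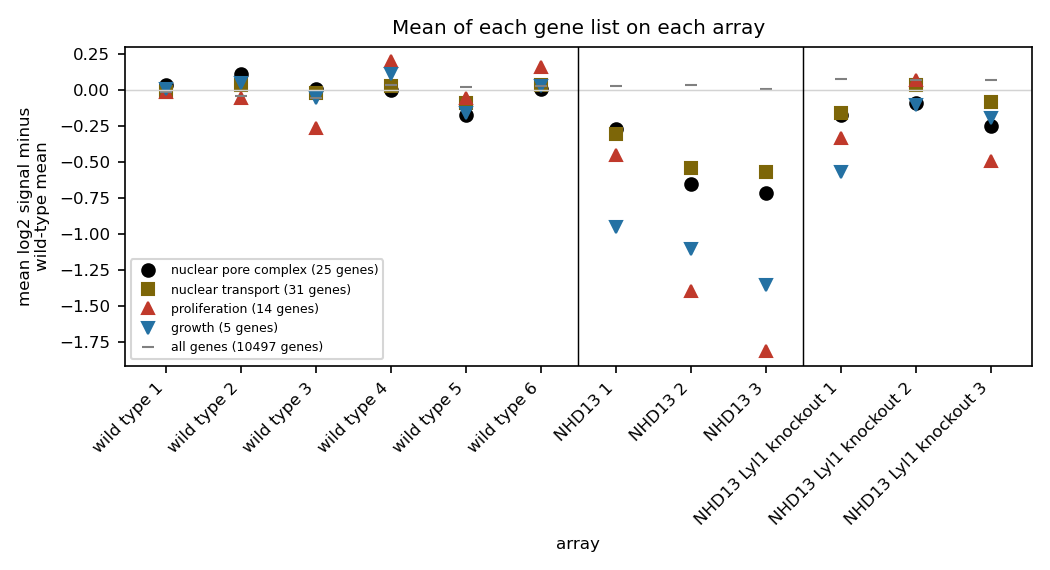
Mean log2 signal of each gene list on each array minus its wild-type mean (vertical), for the 12 arrays (horizontal). Members, transport, proliferation and growth genes all lie below 0 on the 3 NHD13 arrays, lowest on replicate 3 (-0.71 for members, -1.81 for proliferation), while the mean of 10497 genes stays between 0.01 and 0.04 there.

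Cell type markers also differed. Of 8 T-lineage markers, 2 were called lower in NHD13, Rag1 and Ptcra. Cd3d was not called (-2.0, adjusted p = 0.101), though it read 11.88, 11.73 and 10.79 in NHD13 against 13.4 to 13.53 in wild type. Rag1 read 6.68, 6.48 and 5.38 in NHD13 against 10.87 to 11.31 in wild type. The list's summed level ranged from 68123 to 74023 in wild type, from 44641 to 66902 in NHD13 and from 14118 to 66390 with Lyl1 lost. Its mean relative to wild type was -2.62, 0.08 and 0.18 on knockout replicates 1 to 3, so the low level was that of replicate 1. Of 9 detected myeloid markers, 0 were called in the 3 comparisons, with summed levels of 2488 to 13230, 1620 to 30993 and 242 to 72526, the highest on knockout replicate 1. Of 2 detected erythroid markers, Hba-a1 rose in NHD13, at 11.70, 12.85 and 10.02 against 4.73 to 7.88 in wild type, and the summed levels were 52 to 274, 1075 to 7449 and 84 to 208. The defining erythroid gene Alas2 was detected on 1 NHD13 array. Of 3 detected B cell markers, 0 were called in NHD13 against wild type, with summed levels from 1008 to 2813 in wild type, from 1729 to 1968 in NHD13 and from 721 to 1072 with Lyl1 lost. In the knockout group against NHD13, Rag1 (4.44, adjusted p = 0.0025) and Ptcra (3.20, adjusted p = 0.00906) rose, and Hba-a1 (-5.70, adjusted p = 0.00175) and Cd79b (-1.15, adjusted p = 0.0395) fell. With the background class as a block, 2 T-lineage markers were higher there, and 1 erythroid and 2 B cell markers were lower. Against wild type, Bcl11b fell by 1.32 (adjusted p = 0.0441) in the knockout group. It read 10.69, 13.08 and 12.19 on knockout replicates 1 to 3 against 13.17 to 13.44 in wild type, lowest on the replicate that stood apart. Klf1 was detected on 2 of 3 knockout, 1 of 3 NHD13 and 0 of 6 wild-type arrays (adjusted p = 0.0376 against wild type). It thus passed the filter only through the mutant groups, with signals near the lowest detected signal (5.32 to 5.92 in the knockout group, 4.66 to 5.29 in wild type). The part of these cell types in the members' values was not tested.

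Neighbouring genes were compared where another gene started within 500 bases, which held for 9 of 26 members. Pgap2, a gene of lipid anchor remodelling, starts 7 bases from Nup98 on the opposite strand, and its 3 probes changed by 0.00, 0.01 and 0.48 in NHD13, none called. Rpain, 226 bases from Nup88 and named for replication protein A import, changed by between -0.25 and 0.03 in NHD13 over 3 probes, with no call, and its probe ILMN_1247991 rose in the knockout group by 0.78 against NHD13 (adjusted p = 0.0102) and by 0.53 against wild type (adjusted p = 0.0494). Parpbp, a DNA repair gene 51 bases from Nup37, fell by 1.60 ± 0.28 in NHD13 (adjusted p = 0.00263) and rose by 2.07 in the knockout group against NHD13 (adjusted p = 0.00171), while Nup37 changed by -0.40 (adjusted p = 0.262) and 0.11 (adjusted p = 0.815). Atf5, 430 bases from Nup62, changed by -0.05 in NHD13 (adjusted p = 0.915) and rose by 0.94 in the knockout group against NHD13 (adjusted p = 0.0414). The values of these neighbours are given without the background class, which cannot be told apart from genotype between NHD13 and the knockout group.

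The spread between arrays of a group was described by its median. The median SD of member probes was 0.30 in wild type, 0.32 in NHD13 and 0.18 in the knockout group, against 0.31, 0.29 and 0.28 over all probes. Between wild-type replicates 1 to 3 and 4 to 6, 15 of 45 member probes (33.3%) did not overlap, against 39.7% of all probes. No test of these spreads was made.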

How the data were processed

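Expression was measured on 12 arrays from about 300 ng of total RNA each, per the labels' protocols. The authors deposited a bead-summarised intensity per probe and, beside it, a p-value for detection (per the file headers). They also deposited normalized log2 levels, made by a step that the sources used here do not give; BeadStudio and limma are named in the submitters' processing notes. Whether background was subtracted is not given there.

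Intensities were normalized with neqc (limma 3.58.1, R 4.3.3; offset 16, quantile, log2), and probes with a detection p under 0.05 on at least 3 arrays were kept (20416 of 45281). A mean per group was fitted to all 12 arrays (lmFit, eBayes), and 3 contrasts were tested with limma's moderated test, adjusted by Benjamini and Hochberg over all kept probes. "At least" folds are taken relative to the lowest detected signal. The code was tested on simulated data. Arrays detected 17168 to 19464 probes, and their number limits the precision.

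Every member is named, with values on each array for those called in a comparison and for Nup98, Rae1 and Xpo1; of the transport genes, the 3 largest called rises and falls are named. A gene is summarised by its brightest kept probe. The members and lists were chosen with earlier results of these data known. Same-numbered replicates did not deviate together (r of -0.15 to 0.17), so they were not paired. Alternatives were other scalings, offsets, filters and weights, the authors' log2 table, blocks for class, sex and replicate, and leaving out arrays.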

Additional observations from a re-analysis of the deposited data

How the results depend on the processing

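Counts of called member probes are given in the order NHD13 against wild type (15), knockout against NHD13 (9) and knockout against wild type (6), and of transport genes likewise (11, 9 and 2). Leaving out 1 array gave 5 to 18, 2 to 13 and 2 to 6 member probes, and 6 to 14, 5 to 10 and 0 to 1 transport genes. Over all probes these fits gave 2246 to 5084, 2357 to 4648 and 1123 to 1613 calls. Median scaling gave 3 member probes in the first comparison, and 3 and 5 transport genes in the first and second. With wild-type replicates 4 to 6 only, 6 member probes and 7 transport genes were called in the first. With replicates 1 to 3 only, 1 transport gene was called in the third. The class as a block gave 11 member probes and 8 transport genes in the first. With the background class as a block, the second gave 5 member probes and 3 transport genes, and the third 1 transport gene; with knockout replicate 1 also left out, an alternative chosen after seeing the data, these were 5 (2 higher, 3 lower), 4 and 0, and Pom121 in the second turned to -0.01 (adjusted p = 0.988). Without a filter on dim probes the third gave 3 member probes and 1 transport gene.

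The replicate numbers share no stated source; with the replicate block 11, 7 and 6 member probes and 9, 6 and 0 transport genes were called. The authors' deposited table (15, 9 and 5), an offset of 50 (16, 8 and 5), array weights (18, 13 and 5), sex as a covariate (13, 10 and 5) and detection on 6 or more arrays (15, 8 and 5) kept the member counts within 1.5 times. Dim probes limit what can be read for Nup153, Nup188 and Xpo1, and each mutant group had 3 arrays.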
